A study of Arabidopsis thaliana with 6 samples.

Results

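WRKY group III is a branch of the plant WRKY transcription factor family, and 9 of its genes are described here: WRKY70, WRKY54, WRKY55, WRKY38, WRKY62, WRKY53, WRKY46, WRKY41 and WRKY30. They were listed by locus, as members of this family, with earlier results of these data known. Each locus has 1 probe on the array, so the genes make up 9 of 21500 probes. Another 62 probes name other WRKY genes, among them 4 of group III that are outside this set: WRKY64, WRKY66, WRKY67 and RRS1.

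WRKY proteins bind W-box elements in the promoters of defence and senescence genes, and members of group III carry a single WRKY domain with a zinc finger of its own type. Several of them are induced by salicylic acid (SA), the hormone of defence against biotrophic pathogens. WRKY70 acts downstream of the SA co-activator NPR1 and is known for favouring SA over jasmonate responses. Together with its close relative WRKY54 it also restrains SA synthesis and leaf senescence.

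The data are 6 Agilent arrays with 2 colours of RNA from 28-day Arabidopsis thaliana plants, sampled whole except for the root. On 4 arrays the Cy5 channel held plants treated with 5 mM SA for 2, 5, 10 or 24 h (1 array each), and the Cy3 channel held untreated plants; the labels give these plants the ecotype Columbia. On the other 2 arrays the Cy5 channel held plants overexpressing SIBA, which the reference table names SIB1 (AT3G56710), and the Cy3 channel held vector control plants. SIB1 is a VQ-motif protein that binds a plastid sigma factor and also group I WRKY proteins. The labels name the 2 overexpressors CA32F3 and CA32F4, called line 1 and line 2 here, and do not say whether they are separate transformants. The labels give neither the promoter of the transgene nor the ecotype of these plants. Dyes were not swapped, so a bias of a probe towards 1 dye would appear on every array in the same direction. No label says that the arrays hold separate cultures or pools of plants, so the p-values measure the spread between these arrays only.

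All values are ratios of Cy5 over Cy3 on the log2 scale unless stated, so a positive value means a higher level in SA-treated or overexpressing plants. The arrays differed in brightness, with a median Cy5 signal over local background of 21.5 at 2 h and 79 and 84 in the lines, against 206.5, 300.0 and 404 at 5, 10 and 24 h. On the 24 h array 1722 spots (8.01%) carried outlier marks, and those of WRKY55 and WRKY30 are among them, so both have no 24 h value in the fits. SIB1 itself had log2 ratios of 5.25 and 5.59 in lines 1 and 2, as the labels of those plants require, and 4.46, 3.71 and 2.88 at 2, 5 and 10 h of SA. All 6 leaf markers looked for gave signals of at least 269.8 in both channels of every array. The 6 root markers with a probe gave at most 14.4 on the 3 dim arrays but up to 1479 on the bright ones, and the 5 flower markers gave at most 222. None of these markers was called in any comparison (4 of the 6 leaf markers could be tested in the lines), and their part in the results was not tested. In whole shoots, a change in the number of cells that express a gene and a change in its RNA per cell cannot be told apart.

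After SA, 5 of the 9 genes were higher over the 4 times: WRKY38, WRKY54, WRKY62, WRKY70 and WRKY53. None was lower. A call needed a Benjamini-Hochberg adjusted p under 0.05 from limma across all probes and a mean that moved by 2-fold or more. Over all 21280 probes tested, 2.8% were called higher and 0.954% lower. The median of the 9 genes' means was 1.31, against -0.0085 over all probes. The fit treats the 4 times as replicates, so its error holds the differences between times in both channels. With 1 array per time, the spread between plants within a time, treated or untreated, is not measured apart. The 5 calls rest on few arrays: without the 5 h or the 10 h array the fit called none of the 9 genes (smallest adjusted p of any probe 0.0521 and 0.0546), and without the 2 h or the 24 h array it called 3.

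At single times, 6 of the 9 genes were at least 2-fold higher at 2 h, where 3.84% of all probes were. The count was 5 at 5 h (6.09% of probes), 5 at 10 h (7.3%) and 4 of 7 with a value at 24 h (5.31%). No gene of the group was 2-fold lower at any time, where 2.31, 3.66, 4.43 and 5.63% of probes were at 2, 5, 10 and 24 h. WRKY70, WRKY54, WRKY38 and WRKY62 were at least 2-fold higher at all 4 times, as were 1.71% of the 19736 probes with a value at every time, and none of the 9 was lower at all 4 (0.248% of probes). Single arrays carry no test.

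**Figure D1:**
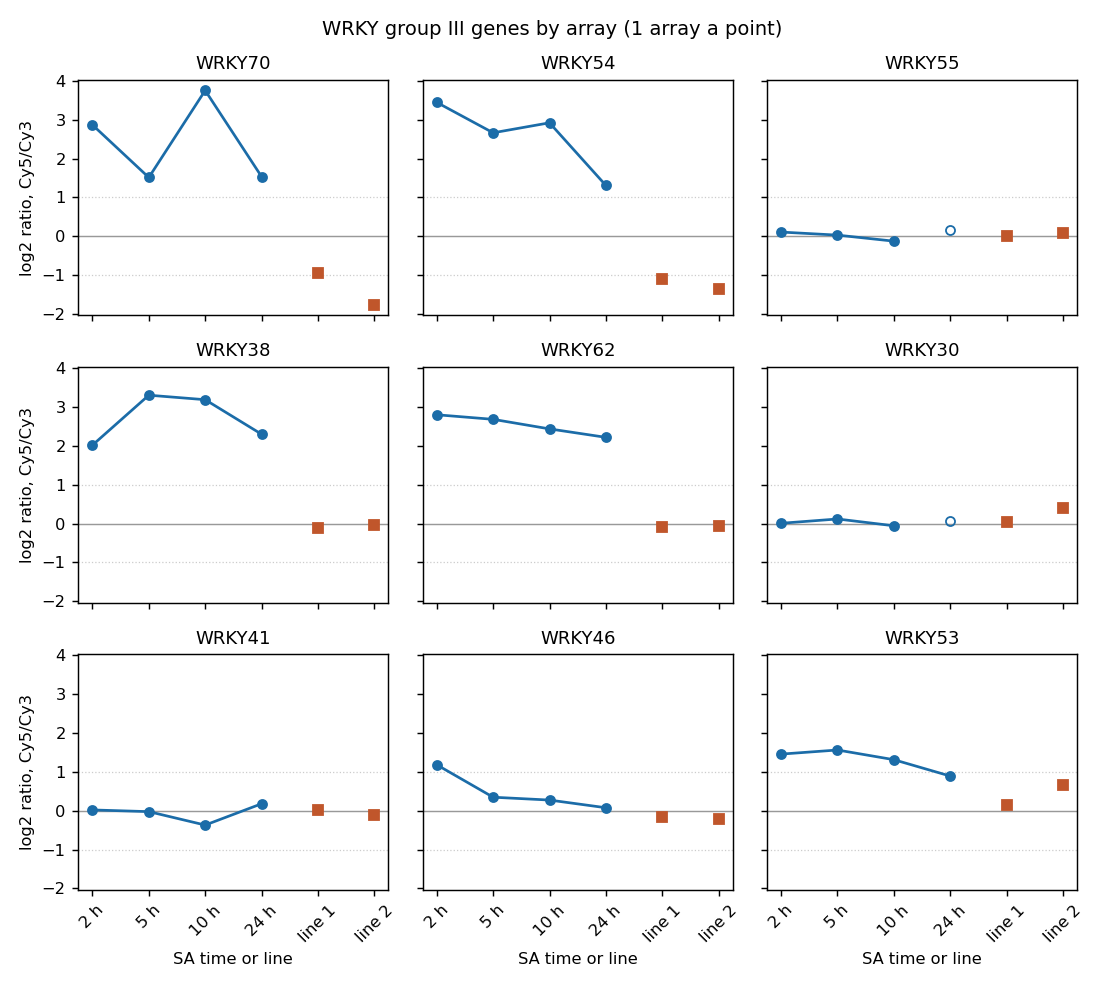
Log2 ratio of Cy5 over Cy3 (y axis) for each WRKY group III gene on each array (x axis): blue circles are SA over untreated at 2, 5, 10 and 24 h, and orange squares are SIB1 overexpressor lines 1 and 2 over vector control; open circles are 24 h spots with outlier marks that were left out of the fits, and dotted lines mark 2-fold. WRKY70 and WRKY54 lie above 1 at all 4 SA times and below 0 in both lines, while WRKY38 and WRKY62 lie above 2 at all SA times and near 0 in the lines.

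WRKY70 (AT3G56400) had log2 ratios of 2.87, 1.51, 3.75 and 1.53 at 2, 5, 10 and 24 h. The 10 h value, a 13.5-fold increase, was the highest and lay above 99.8% of all probes on that array. The 5 h and 24 h values differed by less than the scanner software's own error of a ratio, which was 0.20 at both times. Before dye normalization its signal was 3264, 6502, 15052 and 9016 in SA-treated plants, against 242, 1875, 656 and 1601 in untreated plants. The SA-treated signal was thus higher on every array. Its mean was 2.42 ± 1.09 (SD, n = 4), a 5.34-fold increase (limma adjusted p = 0.0437).

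The jump of WRKY70 between 5 h and 10 h lay in both channels. After both channels were brought to a common scale across arrays, its level was 12.82, 11.90, 12.84 and 11.53 (log2) in SA-treated plants at the 4 times and 9.95, 10.39, 9.09 and 9.99 in untreated plants. The ratio was 2.24 higher at 10 h than at 5 h, made up of a level 0.94 higher in the SA-treated plants and 1.30 lower in their untreated controls. From 10 h to 24 h the ratio changed by -2.22, with -1.31 in the SA-treated and +0.91 in the untreated plants. The lowest SA-treated level, 11.53, still lay above the highest untreated level, 10.39. With 1 array per time these steps have no replicate check.

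WRKY54 (AT2G40750), which acts with WRKY70, had log2 ratios of 3.45, 2.66, 2.92 and 1.31 at 2, 5, 10 and 24 h. It was thus highest at 2 h (10.9-fold) and lowest at 24 h (2.48-fold). The 2 h value was 4.30 with an offset of 16 and 4.68 with the scanner software's ratio, again the highest of the 4 times. Signals were 1084, 3836, 5641 and 3769 in SA-treated plants, against 28.5, 451, 375 and 765 in untreated plants. Its mean was 2.58 ± 0.911 (SD, n = 4), just under a 6-fold increase (adjusted p = 0.0287). The change of -1.61 from 10 h to 24 h was made up of -1.06 in SA-treated and +0.55 in untreated plants. Across times the lowest SA-treated level of WRKY54 was 10.20 and the highest untreated level 8.89 (log2).

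WRKY55 (AT2G40740), a factor linked to leaf senescence and defence, is the direct neighbour of WRKY54 on the chromosome, with 0 protein-coding genes between them in the reference table. At 2, 5 and 10 h it had log2 ratios of 0.11, 0.03 and -0.13, with 0.15 for the marked spot at 24 h. WRKY54, its neighbour, was above 2-fold at each of these times and WRKY55 at none of them in these ratios, though the scanner software's ratio of WRKY55 at 2 h was 1.09 with an error of 0.50. The mean of WRKY55 was 0.0024 ± 0.119 (SD, n = 3; adjusted p = 0.991). At 2 h its signals were 7.29 in SA-treated and 7.16 in untreated plants, which is 5.76 and 2.74 times their scanner errors, so the untreated level there was poorly measured. At 5 h the signals were 155 and 128, and at 10 h 189 and 108.

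**Figure D2:**
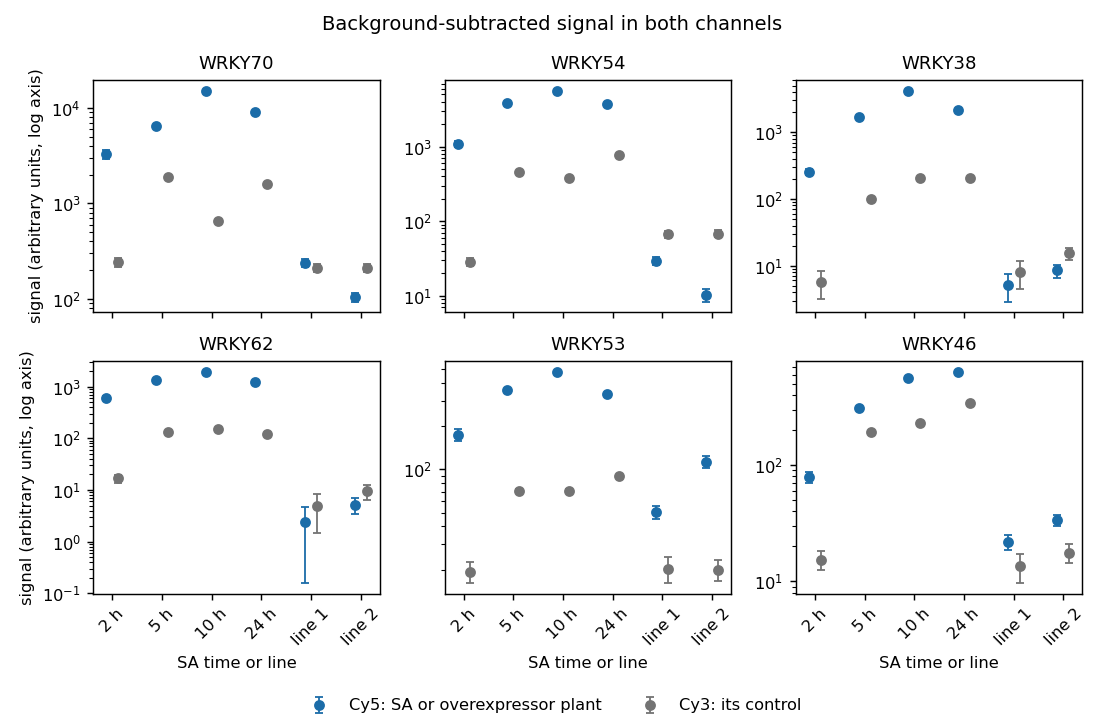
Background-subtracted signal in arbitrary units before dye normalization (y axis, log scale) on each array (x axis) for 6 WRKY group III genes: blue points are the Cy5 channel (SA-treated or SIB1-overexpressing plants) and grey points the Cy3 channel (untreated or vector control plants), with bars of 1 scanner error. The treated signal of WRKY70 exceeds that of its control at all 4 SA times, and in line 2 it falls to 105 against 211; the points of WRKY38 and WRKY62 in the lines lie under 16.

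WRKY38 (AT5G22570) and WRKY62 (AT5G01900) encode close relatives that act downstream of NPR1 as negative regulators of basal defence and bind the histone deacetylase HDA19. WRKY38 had the highest SA mean of the group, with log2 ratios of 2.02, 3.30, 3.19 and 2.30 at 2, 5, 10 and 24 h. Signals of WRKY38 were 257, 1693, 4200.2 and 2141 in SA-treated plants, against 5.78, 99.2, 205 and 207 in untreated plants. The untreated signal at 2 h was only 2.24 times its scanner error. Its ratio at 2 h moved with the offset of 50 added to both channels: it was 2.93 with an offset of 16, and the scanner software's ratio, which has none, was 5.51, the highest of its 4 times. The mean of WRKY38 was 2.70 ± 0.640 (SD, n = 4), 6.51-fold (adjusted p = 0.0191), and its order over time is not settled by these data.

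WRKY62 had log2 ratios of 2.80, 2.68, 2.44 and 2.22 at 2, 5, 10 and 24 h. Its signals were 606, 1336, 1931 and 1240 in SA-treated plants, against 16.9, 132, 150 and 121 in untreated plants. All 4 ratios lay within 0.58 of each other. The mean was 2.53 ± 0.259 (SD, n = 4), a 5.79-fold increase (adjusted p = 0.0112). At 2 h the scanner software's ratio was 4.78, where the untreated signal was dim.

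WRKY53 (AT4G23810), a promoter of leaf senescence, had log2 ratios of 1.46, 1.57, 1.32 and 0.89 at 2, 5, 10 and 24 h. These are increases of 2.75-, 2.96-, 2.49- and 1.86-fold, and the 24 h value passed 2-fold with an offset of 16 (1.07). Signals were 174, 356, 472 and 331 in SA-treated plants, against 19.4, 71.0, 71.0 and 89.3 in untreated plants. Its mean was 1.31 ± 0.294 (SD, n = 4), a 2.48-fold increase (adjusted p = 0.0193). The scanner software's ratio at 2 h was 3.02.

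WRKY46 (AT2G46400), which acts with WRKY53 and WRKY70 in basal resistance, had log2 ratios of 1.18, 0.35, 0.28 and 0.08 at 2, 5, 10 and 24 h. Only the 2 h value passed 2-fold. Signals were 78.7, 310, 565 and 631 in SA-treated plants, against 15.4, 193, 229.9 and 340.3 in untreated plants. The mean of 0.47 ± 0.488 (SD, n = 4) did not pass the test (adjusted p = 0.230). With the scanner software's ratio its 2 h value was 2.44, and its mean again did not pass.

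WRKY41 (AT4G11070), known from seed dormancy and from responses to bacterial flagellin, had log2 ratios of 0.02, -0.02, -0.37 and 0.18 at 2, 5, 10 and 24 h. WRKY30 (AT5G24110), an early stress-responsive factor, had 0.01, 0.12 and -0.06 at 2, 5 and 10 h. Neither passed 2-fold at any time, and the means were -0.05 ± 0.231 (SD, n = 4; adjusted p = 0.839) for WRKY41 and 0.02 ± 0.0884 (SD, n = 3; adjusted p = 0.909) for WRKY30. At 2 h the SA-treated signal of both was the scanner software's substitute for a value too close to background. At 5 h they were measured clearly, with signals of 231 in SA-treated and 196 in untreated plants for WRKY41 and of 339 and 256 for WRKY30.

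No gene of the group passed the test for a trend over SA time. The test fitted a slope per doubling of hours over the 4 SA arrays, and 0 of 21280 probes were called (smallest limma adjusted p 0.961), with 980 at an unadjusted p under 0.05. Those 980 are a smaller share of the probes than the 0.05 that would fall there with no trend at all. They include WRKY54 with a slope of -0.53, WRKY46 with -0.29 and WRKY62 with -0.17 per doubling. The slopes of WRKY70 and WRKY38 changed sign with the array left out or the way of processing.

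In the SIB1 overexpressors, WRKY70 and WRKY54 had the lowest values of the group. WRKY70 had log2 ratios of -0.94 and -1.76 in lines 1 and 2, or 1.92- and 3.39-fold lower than the vector control. WRKY54 had -1.10 and -1.36, or 2.14- and 2.57-fold lower. Signals of WRKY54 were 29.3 ± 3.70 and 10.3 ± 2.01 (± scanner error) in lines 1 and 2, against 66.8 ± 7.53 and 68.0 ± 7.33 in their vector controls, so the error bars did not meet. Signals of WRKY70 were 240.4 ± 24.1 and 105 ± 10.6 in the lines, against 211 ± 21.4 and 211 ± 21.3 in the controls. These signals are before dye normalization, and the Cy5 channel was the brighter one on both arrays, so in line 1 only the normalized ratio of WRKY70 lies below 0.

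Neither difference passed the test across all probes. WRKY70 averaged -1.35 ± 0.582 (SD, n = 2) and WRKY54 -1.23 ± 0.185 (SD, n = 2), both with a limma adjusted p of 0.664. No probe of 21482 was called in the overexpressors (0%), SIB1 included. An unadjusted limma p under 0.05 was reached by 995, among them WRKY54 (unadjusted p = 0.0036) and WRKY70 (unadjusted p = 0.0289). The 995 are a smaller share of the probes than the 0.05 that would fall there with no difference at all. Being among them does not set a gene apart. WRKY70 stood at place 40 and WRKY54 at place 57 from the lowest mean of all probes. The sizes depend on the processing: with the scanner software's ratio WRKY54 averaged -2.96 and WRKY70 -1.78, and with median centring in place of loess WRKY54 averaged -1.28 and was called (adjusted p = 0.0421) while WRKY70 averaged -0.83 (adjusted p = 0.0662). Median centring raised calls in general, to 412 of 21482 probes, 406 of them higher.

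Counted by line, 1 gene of the group, WRKY54, was at least 2-fold lower in line 1, where 0.0838% of all probes were. In line 2 it was 2, WRKY54 and WRKY70, against 2.26% of probes. WRKY54 alone of the 9 passed 2-fold lower in both lines, as did 11 of 21482 probes (0.0512%). Of 19723 probes with a value on all 6 arrays, 70 (0.355%) were at least 2-fold higher at all 4 SA times and below 0 in both lines. WRKY70 and WRKY54 are among the 70. WRKY38 and WRKY62 are too. The spots of WRKY62 were too dim in both lines for the sign of its ratios to be read. Those of WRKY38 reached 3 scanner errors in both channels in only 1 of 2 lines. Only 3 probes (0.0152%) were at least 2-fold higher at all SA times and at least 2-fold lower in both lines: WRKY54, LURP1, a gene of defence against an oomycete, and AT5G03350. LURP1 and AT5G03350 were named after their values were seen.

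With the offset of 50 the other 7 genes stayed within 2-fold in both lines, and none of the 9 was 2-fold higher in line 1 (0.191% of probes) or line 2 (1.88%). WRKY53 had log2 ratios of 0.16 and 0.66 in lines 1 and 2, with signals of 50.4 and 113, against 20.3 and 20.1 in the vector controls. In line 2 it passed 2-fold with an offset of 16 (1.07), in the authors' deposited table (1.15) and with the scanner software's ratio (1.36). WRKY46 had -0.17 and -0.22 with signals of 22.0 and 33.7 in the lines, against 13.4 and 17.6 in the controls. WRKY30 had 0.03 and 0.39, and with the scanner software's ratio 1.498 in line 2. WRKY41 had 0.02 and -0.10 and WRKY55 0.02 and 0.08.

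For WRKY38 and WRKY62 the overexpressor arrays gave little information. WRKY38 had log2 ratios of -0.12 and -0.04 with signals of 5.21 ± 2.31 and 8.48 ± 1.92 (± scanner error) in lines 1 and 2, against 8.13 ± 3.58 and 15.3 ± 3.12 in the vector controls. WRKY62 had -0.08 and -0.06 with signals of 2.42 ± 2.26 and 5.15 ± 1.80 in the lines, against 4.99 ± 3.53 and 9.41 ± 2.88 in the controls. On neither line array did both channels of WRKY62 reach 3 scanner errors, and those of WRKY38 did so in 1 of 2. A ratio of spots this dim is drawn towards 0 by the offset, so a difference could go undetected at this brightness. In line 2 the error bars of WRKY38 did not meet before dye normalization, with the lower signal in the overexpressor. The line mean of WRKY38 was -0.08 here, -0.62 with median centring (adjusted p = 0.0421, under 2-fold) and -0.86 with the scanner software's ratio (adjusted p = 0.507). For WRKY62 the same 3 means were -0.07, -0.63 and -0.42. WRKY70, WRKY54, WRKY53 and WRKY46 reached 3 scanner errors in both channels of both line arrays.

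**Figure D3:**
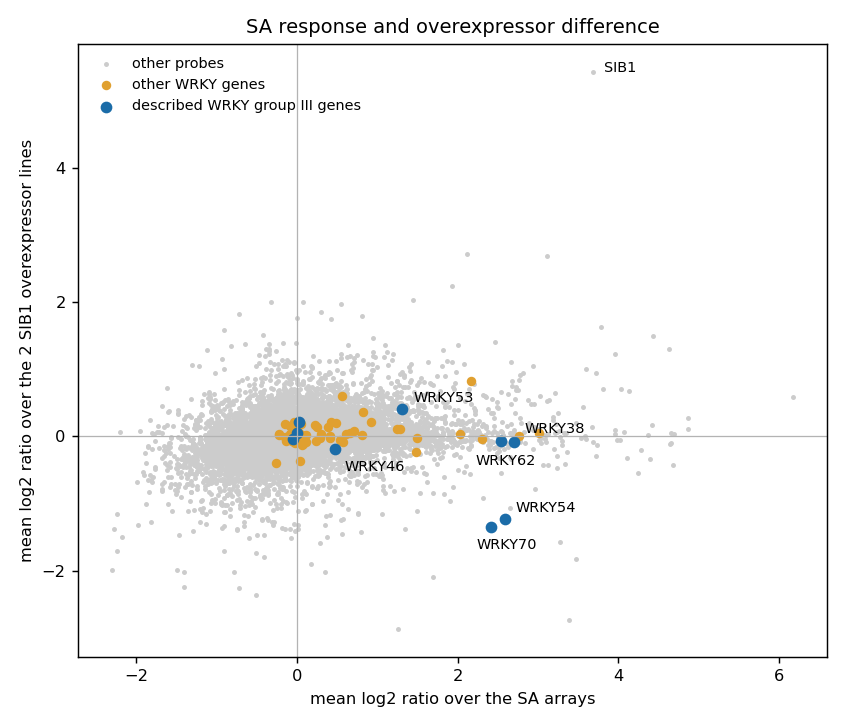
Mean log2 ratio over the 4 SA arrays (SA over untreated, x axis) against the mean log2 ratio over the 2 SIB1 overexpressor lines (overexpressor over vector control, y axis), 1 point per probe: blue points are the 9 WRKY group III genes, orange points other WRKY genes and grey points all other probes. WRKY70 (2.42, -1.35) and WRKY54 (2.58, -1.23) lie to the right and below, WRKY38 and WRKY62 to the right at a height near 0, and SIB1 at the top right.

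The difference between the SA response and the overexpressor ratio was tested in 1 fit over all 6 arrays. WRKY62 was the only gene of the group called, with a difference of 2.60 (SA minus overexpressor, 6.08-fold, limma adjusted p = 0.0399). Its line ratios come from spots that did not reach 3 scanner errors in both channels and that the offset holds near 0, so this value restates its SA ratio and does not compare SA with the overexpressors. The same holds for WRKY38 on 1 of the 2 line arrays. Over all 21482 probes, 0.0605% were called with a higher and 0.00466% with a lower value after SA. WRKY54 and WRKY70 had larger differences, 3.81 (adjusted p = 0.123) and 3.77 (adjusted p = 0.155), places 26 and 28 from the highest of all probes, with more spread between arrays. WRKY38 had 2.78 (adjusted p = 0.123), WRKY53 0.90 (adjusted p = 0.229) and WRKY46 0.67 (adjusted p = 0.486). Without the 5 h array, the 10 h array, line 1 or line 2 the difference of WRKY62 was 2.56, 2.64, 2.60 and 2.61, and neither it nor any other probe was called (its adjusted p was 0.101, 0.126, 0.192 and 0.433).

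The array files of the 2 h sample and the lines carry columns for a spatial correction that the other files lack, and these arrays are also the dim ones. With that property of the files as a block, none of the 9 genes was called for the difference, and WRKY62 stood at 2.87 (adjusted p = 0.181), WRKY54 at 4.67 (0.290) and WRKY70 at 4.22 (0.455). With this block the difference rests on the 2 h array against the 2 lines, since every array without these columns is an SA array. It is thus no separate check from the single values. The 2 h array gave WRKY54 3.45 after SA, against -1.10 and -1.36 in the lines, and WRKY70 2.87 against -0.94 and -1.76.

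WRKY54 was the probe nearest to WRKY70 over the 6 arrays. The search covered 19549 probes with 1 named locus, a value on every array and no saturated spot. The root mean square difference of their log2 ratios was 0.657. The next probes to WRKY70 were AT5G19120 (0.843), AT1G13990 (0.844) and AT1G69890 (0.866). Nearest to WRKY54 were AT2G27830 (0.592), WRKY70 (0.657), APR3 (AT4G21990, 0.667), which encodes an enzyme of sulfate reduction, and AT5G64250 (0.723). AT2G27830 had 3.14, 2.70, 2.33 and 1.07 at the 4 SA times, and in lines 1 and 2 it had 0.06 and -1.88, so it resembled WRKY54 less in line 1. WRKY62 came at place 12 for WRKY54 and place 30 for WRKY70, and WRKY38 at places 65 and 60. The likeness is a description over 6 arrays that share their labelling.

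Of the other WRKY genes outside group III, 7 of 58 were called higher after SA and none lower, with a median SA mean of 0.11. The 4 with the largest SA means were WRKY40 (3.02 ± 0.953), a partner of WRKY18 in restraining defence, WRKY75 (2.77 ± 1.27), WRKY51 (2.31 ± 0.322) and WRKY15 (2.16 ± 0.699; SD, n = 4 each). In lines 1 and 2 they had 0.03 and 0.08 (WRKY40), -0.01 and 0.04 (WRKY75), -0.05 and -0.03 (WRKY51) and 0.83 and 0.81 (WRKY15). None of these 4 was below -0.05 in either line, where WRKY70 and WRKY54 had at most -0.94. They were picked by SA mean, and other WRKY genes were lower in line 2. WRKY18, also called after SA, had -0.05 and -0.41 in lines 1 and 2. Over all 62 other WRKY probes the lowest value was -0.22 in line 1 and -0.80 (WRKY3) in line 2. Signals of these genes were not compared with their scanner errors, so a ratio near 0 does not show an unchanged level. Another 4 group III genes outside the set of 9 have a probe: WRKY64, WRKY66, WRKY67 and RRS1, an immune receptor with a WRKY domain. None was called in any comparison, and their SA means were -0.04, 0.57, -0.13 and -0.04. WRKY66 had 0.10, 0.08, 1.47 and 0.65 at 2, 5, 10 and 24 h, so it passed 2-fold at 10 h. WRKY64, WRKY67 and RRS1 passed 2-fold at no time.

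After SA, 6 of 13 SA synthesis and signalling genes were called higher and 0 lower, with a median SA mean of 1.13. They include NIMIN1, which binds NPR1, at 4.64 ± 0.672, PAD4, a lipase-like regulator of SA build-up, at 2.15 ± 0.997, the SA receptor NPR3 at 1.87 ± 0.816 and the SA exporter EDS5 at 1.65 ± 0.704 (SD, n = 4 each). NPR1, upstream of WRKY70, and CBP60g, an activator of SA synthesis, were the others. In the overexpressors none of the 13 was called. PAD4 had -0.25 and -0.88 in lines 1 and 2, and NIMIN1 -0.08 and -0.15. CBP60g had 0.81 and 0.82, and NPR3 0.20 and -0.27. Of the 13 line means 4 were above 0, and their median was -0.07.

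Of 9 output genes of SA, jasmonate and senescence placed downstream of WRKY70, WRKY54 or WRKY53, none was called after SA or in the overexpressors. PR1, the usual marker of SA output, had 0.10, 0.71, 2.47 and 2.89 at 2, 5, 10 and 24 h, a mean of 1.54 ± 1.35 (SD, n = 4; adjusted p = 0.158). The senescence marker SAG13 had 0.12, 2.17, 1.22 and 3.88 (adjusted p = 0.154). WRKY70 and WRKY54 were thus above 2-fold at 2 h, where PR1 and SAG13 were not. The 2 h array had the lowest median Cy5 signal, 21.5, and the offset draws ratios of dim spots towards 0. Signals of PR1 and SAG13 there were not compared with their scanner errors, so an order in time is not shown. PR5 had -0.56 and -1.37 in lines 1 and 2, and the jasmonate marker VSP2 had -0.26 and -0.69. Of the other jasmonate genes, LOX2 had -0.64 and -2.07, PDF1.2a 0.76 and -0.72 and PDF1.2b 1.06 and -0.39, named here beyond the 4 with the largest SA means.

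None of 7 genes for proteins that bind or modify group III WRKY factors was called in any comparison. ESP, the epithiospecifier protein that binds WRKY53, had 0.48, -1.37, -2.12 and -0.64 at the 4 SA times, and in lines 1 and 2 it had -1.20 and -2.20. BES1, a brassinosteroid factor that acts with WRKY54, had -1.18, -1.85, -0.86 and 0.34 at the 4 times. The kinase genes MPK3 and MEKK1 had SA means of 0.46 ± 0.759 and 0.39 ± 0.278 (SD, n = 4 each).

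**Figure D4:**
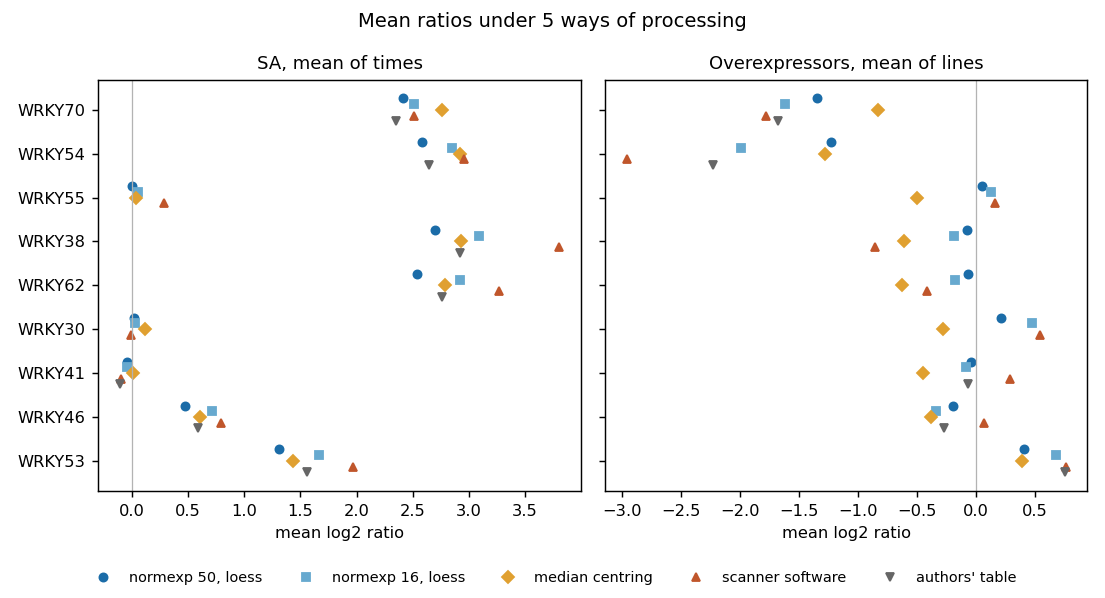
Mean log2 ratio of each WRKY group III gene (y axis) under 5 ways of processing (symbols), over the 4 SA arrays (SA over untreated, left) and the 2 SIB1 overexpressor lines (overexpressor over vector control, right); WRKY55 and WRKY30 have no mean from the authors' table, and WRKY38 and WRKY62 none for the lines. The SA means of the 5 called genes stay above 1 in each, while the overexpressor mean of WRKY54 runs from -2.96 to -1.23.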

How the data were processed

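Each deposited array file is output of Agilent Feature Extraction and holds, per the file headers, the mean spot intensity, median local background intensity and background-subtracted intensity with its error in both channels, spot flags, and the software's log10 ratio of Cy5 over Cy3. A deposited table of the whole series holds another ratio of Cy5 over Cy3, linear by comparison with the arrays (r of its log2 with the computed ratios 0.946 to 0.993), with the authors' normalization of it not given in the sources used here.

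From the intensities, log2 ratios were computed with limma 3.58.1 in R 4.3.3 (normexp with an offset of 50, loess within each array, spots with outlier marks left out). Levels of a channel across arrays were scaled with limma's Aquantile. Tests used lmFit and eBayes over all probes with Benjamini-Hochberg adjustment: SA mean (4 arrays), overexpressor mean (2 arrays), slope on log2 of hours, and SA minus overexpressor (6 arrays). A probe had to be well above background on 2 arrays and to have a value on 3 SA arrays, both lines or, for the difference, 4 arrays. On the 2 h and line arrays the software marked at least 21498 of 21500 probes as well above background. The overexpressor and difference fits thus tested the same 21482 probes with and without this filter, which screened out no dim probe there. Of the probes, 21342 have 1 locus and 158 do not have 1 locus. For 21157 probes the locus was found among the RefSeq genes (TAIR10.1). No coordinates are printed, as no build is named. Code was tested on simulated data. Figures were drawn with matplotlib 3.10.9 in Python 3.11.15.

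The 9 genes and all lists were chosen with earlier results of these data known. Named were the 9 genes, SIB1, the 4 members of each list with the largest SA mean in size, and the 4 probes nearest to WRKY70 and WRKY54; NPR1, CBP60g and the group III genes outside the 9 are named as members of small counts. Alternatives were another offset, median centring, the software's ratio, the authors' ratio, no filter, outlier spots kept, a variance prior following brightness, a spread pooled over 6 arrays, a block for the file layout and each array left out.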

Additional observations from a re-analysis of the deposited data

Results flagged for a closer look

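WRKY62 had a value of 2.60 on the log2 scale for SA minus overexpressor (limma adjusted p = 0.0399) in the fit over both sets of arrays. It had 2.80, 2.68, 2.44 and 2.22 at 2, 5, 10 and 24 h of SA, against -0.08 and -0.06 in lines 1 and 2. On both line arrays its signals were within 3 scanner errors of background in at least 1 channel, so the line ratios are held near 0 by the offset and the value does not show that SA and overexpressor effects differ.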

How the results depend on the processing

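The 5 SA calls held under all 7 other ways of processing run. Leaving out 1 array gave 0 to 3 SA calls (WRKY38, WRKY53 and WRKY62 without 2 h; WRKY53, WRKY54 and WRKY62 without 24 h; 0 without 5 h or 10 h). In the overexpressors median centring gave 1 call, WRKY54, among 412 probes called, with WRKY38, WRKY62, WRKY55 and WRKY41 under the p threshold at -0.63 to -0.45 but under 2-fold, and the other alternatives 0; trends gave 0 throughout. For SA minus overexpressor, offset 16 and median centring gave 2 calls (81 and 93 probes in all, against 14), the software's ratio, the authors' ratio (which has no line value for WRKY62) and the layout block 0 (71, 32 and 0 probes in all), and leaving out 1 array 0 to 2. The causes were not tested.

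Signs turned mostly in values near 0. For the SA mean, WRKY41 was 0.010 with median centring and WRKY30 -0.0069 with the software's ratio. In the overexpressors, median centring gave WRKY55 -0.51 and WRKY30 -0.28, and the software's ratio WRKY41 0.28 and WRKY46 0.066. The trend of WRKY38 was -0.14 with offset 16, -0.81 with the software's ratio and -0.024 with the authors' ratio, and that of WRKY30 0.081 with median centring and 0.0025 with outlier spots kept. For SA minus overexpressor, WRKY41 was 0.041 with offset 16, 0.46 with median centring and 0.067 with the layout block, WRKY55 0.54 with median centring, 0.13 with the software's ratio and 0.058 with the layout block, and WRKY30 0.40 with median centring. With 1 array left out, SA means ran from -0.050 to 0.067 (WRKY55), -0.026 to 0.061 (WRKY30) and -0.12 to 0.061 (WRKY41), overexpressor values of WRKY41 from -0.10 to 0.016, trends from -0.33 to 0.31 (WRKY70), -0.45 to 0.53 (WRKY38) and -0.16 to 0.10 (WRKY41), and differences from -0.098 to 0.019 (WRKY55) and -0.078 to 0.11 (WRKY41).

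Each ratio compares treated with control plants on the same array, so that pairing is part of every fit. No further pairing of SA arrays with line arrays was made, since the labels give none. The layout block used the presence of spatial-correction columns, since the full column layouts number 3 and the lines have 1 of their own. The dim 2 h and line arrays limit WRKY38, WRKY62, WRKY55 and WRKY30 most.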
